A study of Mus musculus with 27 samples.

Results

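Microglia from germ-free (GF) mice after sham surgery were compared with microglia from mice given an antibiotic cocktail (ABX) after the same surgery. These are 6 of the 27 libraries of a mouse study of gut microbiota and intracerebral hemorrhage (ICH), 3 in each of 9 groups, and they were chosen by their labels alone. All mice were wild type (WT). The GF sham mice had the germ-free condition with PBS, the ABX sham mice had the antibiotic cocktail with PBS, and both are labelled day 7. A further sham group of specific-pathogen-free (SPF) mice with a normal microbiota, also 3 libraries, gave the level with neither manipulation. Per the labels' protocols, microglia were sorted by flow cytometry and full-length cDNA was made from little RNA with a SMART-Seq v4 kit. The labels do not say whether a library holds 1 mouse or several, so p-values measure the spread between libraries, which may be in part technical. That spread was estimated over all 27 libraries of the 9 groups, not over the 6 compared libraries alone.

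Microglia are the resident macrophages of the brain. They depend on signals through the receptor CSF1R, survey the tissue with purinergic receptors such as P2RY12, and clear debris through complement, lysosomes and lipid-carrying proteins such as apolipoprotein E. GF mice never carry a gut microbiota, whereas antibiotics deplete one that had been present, and microglia of GF mice are known for an altered, less mature expression state. The comparison therefore sets a lifelong lack of microbiota against an acquired one, without hemorrhage.

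The gene that rose was Apoe, which encodes apolipoprotein E, the main lipid carrier made by glia and a marker gene of disease-associated microglia. Apoe had 8090.2, 2945 and 2853 CPM (counts normalised to library size, scaled by the trimmed mean of M-values, TMM) in GF sham libraries, against 357, 459 and 451 CPM in ABX sham libraries and 407, 691 and 213 CPM in SPF sham libraries. The lowest GF sham library was 6.21 times the highest ABX sham library, and ABX sham overlapped with SPF sham. Means were 4629 ± 2997 CPM in GF sham and 422 ± 56.9 CPM in ABX sham (SD, n = 3 each), and replicate 1 gave the highest GF sham value. The log2 fold change of GF sham over ABX sham was 3.45 ± 0.51 (SE), with an adjusted p of 0.00951 in the quasi-likelihood test of edgeR over 17573 tested genes. Apoe was the 1 gene past an adjusted p of 0.05, which is 0.00569% of the genes tested. The values rest on 200814, 135198 and 208954 reads in GF sham and 28341, 26992 and 25829 reads in ABX sham. At an unadjusted p below 0.05 there were 928 genes (5.28%), 682 of them higher (3.88%) and 246 lower (1.40%) in GF sham.

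Against SPF sham, Apoe was also higher in GF sham by 3.41 ± 0.51 on the log2 scale (adjusted p = 0.0115, edgeR), the 1 gene called of 17573 (0.00569%). That call was lost in 8 of 16 alternatives, among them without GF sham replicate 1 (log2 fold change 2.73, adjusted p = 0.130), without SPF sham replicate 1 or 3 (0.245 and 0.235), with the correction for GC content (0.0850), with the 9 sham libraries alone (0.377) and in limma voom (0.893). ABX sham against SPF sham gave -0.05 ± 0.46 for Apoe, and no gene was called there by edgeR, with 712 genes (4.05%) at an unadjusted p below 0.05, 576 calls by DESeq2 and 108 by limma voom. These 3 comparisons share libraries, so each is given by its own values. The Apoe call against ABX sham was lost without GF sham replicate 1 (log2 fold change 2.78, adjusted p = 0.126), without any 1 of the ABX sham libraries (adjusted p between 0.147 and 0.236), and with size factors of DESeq2 (adjusted p = 0.0609), with a correction for GC content (2.48, adjusted p = 0.0542), without the libraries under 12000 detected genes, GF sham replicates 1 and 2 among them (2.75, adjusted p = 0.112), with a fit of the 9 sham or the 6 compared libraries alone (0.350 and 0.106) or in limma voom (0.872). Over 17 alternatives Apoe was higher in GF sham every time, by 2.48 to 3.87, and 7 kept the call.

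Signs of library quality differed between the groups. GF sham libraries had 10325, 11925 and 18408 genes with a count, against 14979, 16291 and 15357 in ABX sham and 17051, 13536 and 14969 in SPF sham. The TMM factors were 0.517, 1.10 and 1.04 in GF sham and 1.16, 1.15 and 1.29 in ABX sham, so GF sham replicate 1 stood apart. Over genes with a mean of at least 100 CPM, that library correlated with the other sham libraries at 0.403 to 0.482 (Pearson r of log2 CPM, as a description). GF sham replicate 2 also stood apart, at 0.630 to 0.712 with the sham libraries other than replicate 1, against 0.762 to 0.956 among the remaining 7. Genes of high GC content exceeded genes of low GC content, each library set against the mean of all libraries, by 0.701, 0.395 and 1.17 (log2) in GF sham and 0.159, 0.325 and 0.0172 in ABX sham. Total counts ran over all 27 libraries between 41664864 and 79090595. The part of these differences in the results was not tested beyond the alternatives given.

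**Figure D1:**
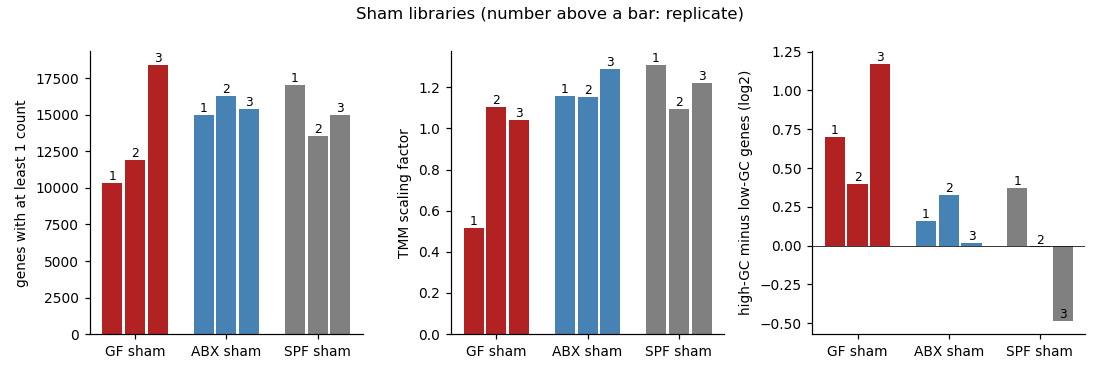
Detected genes, TMM scaling factor and the median log2 difference between the fifth of abundant genes highest in GC content and the fifth lowest, for each GF, ABX and SPF sham library. GF sham replicate 1 has the fewest detected genes and the lowest factor (0.517), and the 3 GF sham libraries have GC differences of 0.70, 0.39 and 1.17, all above the ABX sham libraries.

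The marker genes fixed for the labelled cell type were present. Summed over 9 microglia markers, GF sham libraries had 73123, 31408 and 40469.8 CPM and ABX sham libraries 34304, 35160.2 and 29301 CPM, with Sall1, a transcription factor of microglia, at 1.37, 97.1 and 82.8 CPM in GF sham and 40.8, 37.1 and 103 CPM in ABX sham. In bulk RNA, fewer cells of a type and less RNA per cell cannot be told apart. Border-associated macrophages and astrocytes also make Apoe. Border-associated macrophage markers (9 tested) summed to 1169, 42.5 and 56.1 CPM in GF sham and 43.6, 27.6 and 50.3 CPM in ABX sham, and F13a1 and Stab1 made up nearly all of the sum in replicate 1 of GF sham, at 611 and 553 CPM. Of that type's defining markers, Lyve1 had 0 counts in all 6 libraries, Cd163 had at most 0.524 CPM and Mrc1 had 0.645, 11.6 and 3.30 CPM in GF sham, against 15.6, 4.46 and 0.262 CPM in ABX sham. Astrocyte markers (8 tested) summed to 181, 404 and 242 CPM in GF sham and 261, 220.5 and 409 CPM in ABX sham, nearly all of it Slc1a3, with Gfap and Aqp4 under 5 CPM. Monocyte markers (11 tested) summed to 616, 58.0 and 38.9 CPM in GF sham and 19.8, 16.5 and 16.8 CPM in ABX sham, and neutrophil markers (10 tested) to 895, 254 and 231 CPM in GF sham and 155, 166 and 84.1 CPM in ABX sham, so every GF sham library was above every ABX sham library in both sums. A different gene made up most of the monocyte sum in each GF sham library, F13a1 in replicate 1, Cd44 in replicate 2 (51.6 CPM) and Chil3 in replicate 3 (22.7 CPM), while Ccr2, a defining marker, had 1.37, 0.588 and 0.683 CPM in GF sham and 1.83, 1.43 and 7.45 CPM in ABX sham. In the neutrophil sum, Csf3r, a growth factor receptor, had 891, 203 and 105 CPM in GF sham and 80.6, 64.4 and 83.9 CPM in ABX sham, and S100a8, a defining marker, had 2.98, 2.16 and 45.9 CPM in GF sham and 16.2, 26.1 and 0 CPM in ABX sham, with overlap. Erythroid markers (5 tested) summed to 2692, 392 and 404 CPM in GF sham and 107, 343 and 34.9 CPM in ABX sham, mostly hemoglobin genes, with every GF sham library above every ABX sham library. Choroid plexus markers (4 tested), mostly Ttr, summed to 1701, 1784 and 19508 CPM in GF sham and 9249.6, 17673 and 2124 CPM in ABX sham, with wide overlap, and the sums of the other 7 marker lists overlapped as well. The part of these other cell types in the results, Apoe among them, was not tested.

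The promoter of Apoe is shown with those of Grn and Ctsd, lysosomal genes described below that had the same order of levels. Each window runs from 250 bases before to 50 bases after the gene's start (RefSeq, build GRCm38.p6), 5′ to 3′ on the gene's own strand, with capitals on matches to 4 motifs searched on both strands: the Sp1 motif GGGCGG, the E-box motif CACGTG, the PU.1 core motif GAGGAA, PU.1 being a master factor of macrophages, and the TATA motif, spelled TATAAA.
Apoe, chr7:19699139-19699438, minus strand: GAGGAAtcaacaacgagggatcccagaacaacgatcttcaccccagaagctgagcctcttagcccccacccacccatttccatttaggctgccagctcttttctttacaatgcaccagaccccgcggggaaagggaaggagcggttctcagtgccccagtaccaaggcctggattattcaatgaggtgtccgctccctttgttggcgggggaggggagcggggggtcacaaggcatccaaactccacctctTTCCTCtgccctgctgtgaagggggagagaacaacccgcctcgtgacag
Grn, chr11:102430257-102430556, plus strand: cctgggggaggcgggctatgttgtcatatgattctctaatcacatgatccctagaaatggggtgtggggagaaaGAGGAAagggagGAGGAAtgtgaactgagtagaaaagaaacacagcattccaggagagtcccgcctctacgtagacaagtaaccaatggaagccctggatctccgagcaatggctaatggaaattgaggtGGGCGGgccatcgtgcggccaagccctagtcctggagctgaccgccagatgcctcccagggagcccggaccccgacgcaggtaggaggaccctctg
Ctsd, chr7:142387778-142388077, minus strand: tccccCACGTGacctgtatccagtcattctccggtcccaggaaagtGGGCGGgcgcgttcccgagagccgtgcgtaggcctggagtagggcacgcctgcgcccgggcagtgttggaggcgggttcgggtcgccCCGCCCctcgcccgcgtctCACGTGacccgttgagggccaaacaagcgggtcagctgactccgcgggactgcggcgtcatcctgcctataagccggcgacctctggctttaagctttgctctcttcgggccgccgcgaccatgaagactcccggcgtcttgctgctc
GAGGAA matched 2 times in the Apoe window and 2 times in the Grn window, without overlap with another motif, and 28.3% of all 32851 promoter windows of this length held it. The Ctsd window had 2 matches of CACGTG, the core of the site read by the lysosomal regulator TFEB, which 7.15% of windows held, and 2 of GGGCGG, which 35.7% held. The Grn window held GGGCGG 1 time. TATAAA, held by 13.6% of windows, was in none of the 3. A match is a description of these letters only.

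**Figure D2:**
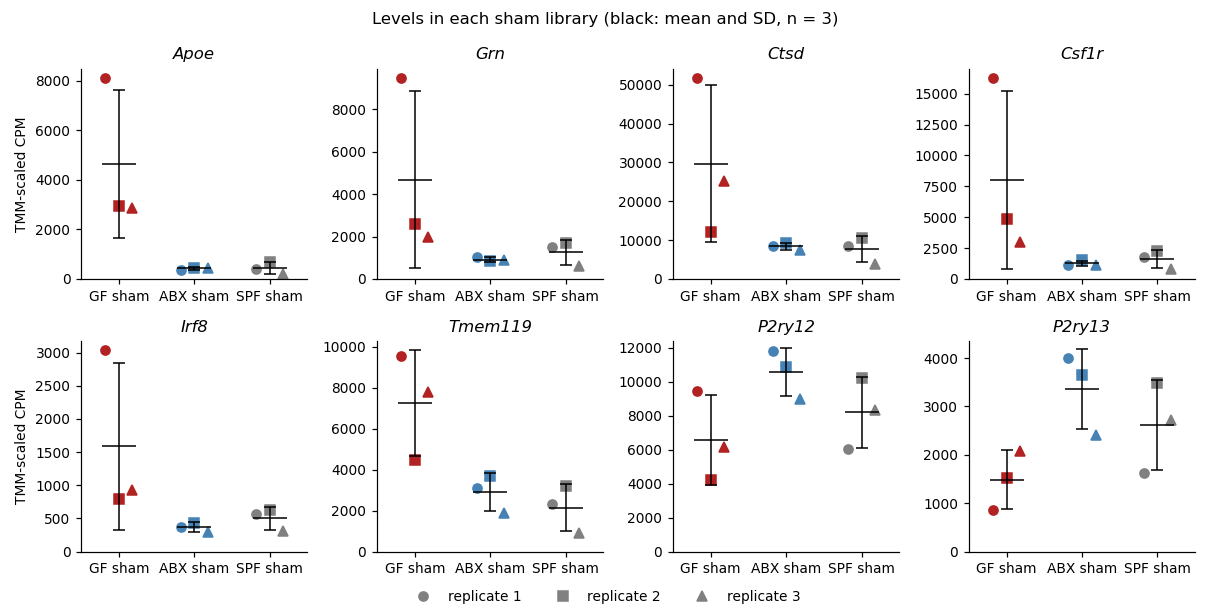
Level (TMM-scaled CPM) of 8 genes in each GF, ABX and SPF sham library, with the mean and SD of 3 libraries in black; marker shape gives the replicate number. Apoe lies between 2853 and 8090.2 CPM in GF sham and at or below 459 CPM in ABX sham, while P2ry13 lies at or below 2074 CPM in GF sham and between 2417 and 3996 CPM in ABX sham.

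No other gene passed the test in edgeR, and the genes below are given as values. edgeR gave each of the 11 further highest-ranked genes in the upward direction and the 12 in the downward direction the same adjusted p of 0.769. They were taken by smallest unadjusted p among genes whose log2 CPM averaged 6 or more and whose groups did not overlap, so the lack of overlap is how they were chosen and not a finding. Among the 1656 genes with a mean of at least 100 CPM, 232 (14.0%) had all GF sham libraries above all ABX sham libraries and 96 (5.80%) had all below; over all tested genes it was 709 (4.03%) above and 1346 (7.66%) below. Scaled by library totals the balance among abundant genes turned, with 154 (9.30%) above and 253 (15.3%) below, and over all tested genes it was 469 (2.67%) above and 1863 (10.6%) below. The list counts given below are read against these shares. The median log2 fold change of all tested genes was -0.10, and that of the abundant genes was 0.47. Scaling by library totals alone moved these medians to -0.39 and -0.10, and size factors of DESeq2 to 0.00 and 0.81, so a direction near these values depends on the scaling. DESeq2 called 21 of the 55 named genes, all 12 of highest upward rank and none of the 12 of highest downward rank among them, of 812 calls in all. Without GF sham replicate 1 the 12 upward log2 fold changes, Apoe included, ran from 0.65 to 2.88, against 1.27 to 3.77 with it, and in 8 of the 12 the fold was smaller by more than 1.5 times; in none of the 12 downward genes was it.

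**Figure D3:**
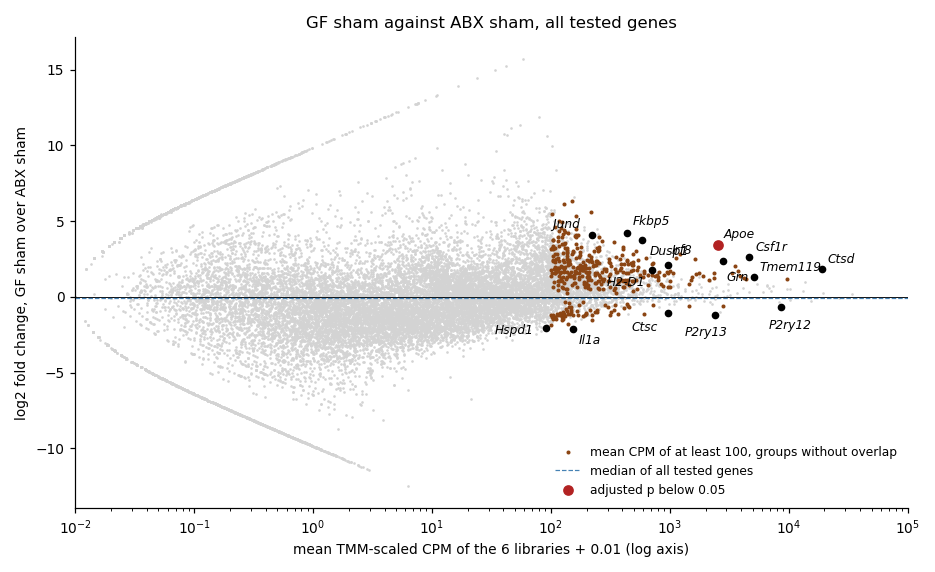
Fitted log2 fold change of GF sham over ABX sham against the mean level of the 6 libraries (log axis) for all tested genes; brown points are genes with a mean of at least 100 CPM whose groups do not overlap. Apoe, in red, is the 1 gene with an adjusted p below 0.05, and the dashed line is the median of all tested genes (-0.10).

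Lysosomal genes had some of the highest ranks. Grn encodes progranulin, a lysosomal and secreted growth factor, and had 9478, 2579 and 2001 CPM in GF sham, against 1032, 834 and 877 CPM in ABX sham. Replicate 1 of GF sham was again far above the others, and the lowest GF sham library was 1.94 times the highest ABX sham library. Its log2 fold change was 2.36 ± 0.52 (SE, unadjusted p = 1.31e-04). The adjusted p of Grn was 0.0227 without replicate 3 of GF sham and 0.00318 in DESeq2. It was 0.262 or higher in the other 15 alternatives run, and the log2 fold change was 1.32 without replicate 1 of GF sham, 1.13 without the libraries under 12000 detected genes and 1.38 in limma voom. Ctsd, the lysosomal protease cathepsin D, had 51754, 12108 and 25160.3 CPM in GF sham, against 8449.5, 9294 and 7319.9 CPM in ABX sham, a log2 difference of 1.83 ± 0.49 (1.16 without replicate 1 of GF sham). Lamp1, a protein of the lysosomal membrane, differed by 1.31 ± 0.43, or 0.30 without replicate 1 of GF sham, and its groups overlapped when scaled by library totals. Ctsc, cathepsin C, stood the other way, with 353, 689 and 839.7 CPM in GF sham and 1522, 1351 and 1024 CPM in ABX sham (-1.05 ± 0.38). Of the lysosome and cathepsin list, 6 of 19 genes had all GF sham libraries above all ABX sham libraries and 1 had all below. The shares of abundant genes were 14.0% and 5.80%. Scaled by library totals, 5 of the list were all above and 2 all below, against 9.30% and 15.3% of abundant genes. The median log2 fold change was 0.75, against 0.47 for abundant genes. By library that median was 1.36, -0.07 and 0.61 in GF sham relative to the ABX sham mean, and it was 0.30 without replicate 1. The matching medians of abundant genes were 0.98, 0.01 and -0.001 by library, and 0.05 without replicate 1.

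Genes of microglial identity stood on both sides. Csf1r, the receptor on which microglia depend, had 16266, 4860.0 and 2965 CPM in GF sham, against 1166, 1519 and 1159 CPM in ABX sham, without overlap (2.65 ± 0.85, unadjusted p = 0.00492, and 1.61 without replicate 1 of GF sham). Irf8, a transcription factor of the myeloid lineage, had 3036, 795 and 924 CPM in GF sham and 370.5, 436 and 289 CPM in ABX sham (2.12 ± 0.55, and 1.24 without replicate 1). Tmem119, a membrane protein used to mark microglia, had 9528, 4457 and 7771 CPM in GF sham and 3097, 3707 and 1870.3 CPM in ABX sham, again without overlap (1.33 ± 0.68). With the correction for GC content Tmem119 was at 0.44, Csf1r at 2.25 and Irf8 at 2.00. All 3 had positive fitted values with no call by edgeR, and DESeq2 called Csf1r (adjusted p = 0.0286) and Irf8 (0.0106). Cx3cr1, the fractalkine receptor, had 12857, 7363 and 5035 CPM in GF sham and 4279, 4947 and 5236 CPM in ABX sham, with overlap. P2ry13, a receptor that senses ADP and one of the genes of highest downward rank, had 854, 1517 and 2074 CPM in GF sham, against 3996, 3648 and 2417 CPM in ABX sham (-1.18 ± 0.40). P2ry12, the ADP receptor that guides microglial processes, had 9422, 4186 and 6150.4 CPM in GF sham and 11776, 10884 and 8983 CPM in ABX sham, with replicate 1 of GF sham inside the ABX sham range (-0.68 ± 0.35). Adora3, an adenosine receptor, differed by -1.24 ± 0.60, Entpd1, the ectonucleotidase CD39, by -1.10 ± 0.60, and Gpr34, a lysophosphatidylserine receptor, by -0.62 ± 0.33, each with all GF sham libraries below all ABX sham libraries, although Gpr34 overlapped with size factors of DESeq2. Of the homeostatic microglia list, 6 of 19 tested genes had all GF sham libraries above all ABX sham libraries and 2 had all below. The shares of abundant genes were 14.0% and 5.80%. Scaled by library totals, 6 were all above and 7 all below, against 9.30% and 15.3% of abundant genes. The list had a median log2 fold change of 0.17 that was -0.20 when scaled by library totals.

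Of the disease-associated microglia list, to which Apoe and Ctsd belong, 3 of 22 tested genes had all GF sham libraries above all ABX sham libraries and 0 had all below, near the 14.0% and below the 5.80% of abundant genes. The 3 were Apoe, Ctsd and Timp2, a metalloproteinase inhibitor (1.56 ± 0.57). Scaled by library totals, 3 of the list were all above and 2 all below, against 9.30% and 15.3% of abundant genes. In that scaling the list median was 0.21. edgeR called Apoe alone, whereas DESeq2, among the members named here, also called Ctsd (adjusted p = 0.0437) and Cst7 (0.0291). At an unadjusted p below 0.05, 8 of the 22 were higher and none lower, against 203 of 1656 abundant genes higher. The median log2 fold change of the list was 0.75, or 0.40 without replicate 1 of GF sham, with 0.69, -0.49 and 0.93 by GF sham library. Abundant genes had a median of 0.05 without replicate 1, and of 0.98, 0.01 and -0.001 by library. Scaled by library totals, the list had -0.51, -0.60 and 0.73 by library. Cst7, the protease inhibitor cystatin F and a defining gene of that state, had 6.24, 89.3 and 52.3 CPM in GF sham and 5.56, 8.32 and 14.1 CPM in ABX sham, overlapping through replicate 1 (2.40 ± 0.73). Spp1, osteopontin, had 152, 105 and 45.5 CPM in GF sham and 31.2, 58.3 and 70.1 CPM in ABX sham (0.92 ± 0.55), a direction that turned without the libraries of lowest detection. Itgax, which encodes CD11c, another defining gene, had 0, 0 and 0.328 CPM in GF sham and 0, 3.22 and 0 CPM in ABX sham.

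In antigen presentation, H2-D1, a classical MHC class I heavy chain, had 1706, 775 and 829.5 CPM in GF sham, against 320.4, 390.4 and 269 CPM in ABX sham (1.76 ± 0.47). Reads of H2-D1 can be shared with closely related class I genes, so its value is uncertain. Tapbp, which loads peptides on class I, had 499, 196 and 149 CPM in GF sham and 42.8, 58.0 and 40.5 CPM in ABX sham (2.58 ± 1.28, and 1.87 without replicate 1 of GF sham). B2m, the light chain common to class I molecules, had 3318 ± 1208 CPM in GF sham and 3048 ± 246 CPM in ABX sham (SD, n = 3 each), a difference within the spread. Cd74, the class II chaperone, had 307, 99.1 and 113 CPM in GF sham and 51.0, 41.1 and 40.3 CPM in ABX sham (1.97 ± 0.81, and 1.27 without replicate 1). The class I list had a median log2 fold change of 0.34 and the class II list of 0.20, both below the 0.47 of abundant genes, and both medians were negative when scaled by library totals (-0.26 and -0.27). Without replicate 1 of GF sham the class I median was -0.23, against 0.05 for abundant genes. C1qb, a chain of complement C1q, differed by 1.00 ± 0.35 with overlap, or by 0.31 with the correction for GC content. Of the complement and phagocytosis list, 3 of 20 genes had all GF sham libraries above all ABX sham libraries and 1 had all below. These counts were close to the 14.0% and 5.80% of abundant genes, and the list median was 0.77.

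Immediate early genes, which respond within minutes to stimulation and also to tissue handling, had a list median of 2.10 on the log2 scale, the highest of 26 functional lists in the edgeR fit. It was 1.31 without replicate 1 of GF sham and 1.14 with the correction for GC content, where the circadian clock list was higher, at 1.60 and 1.19. With the correction for GC content the aryl hydrocarbon receptor list was higher than both, at 1.26. Of the immediate early list, 6 of 19 tested genes had all GF sham libraries above all ABX sham libraries and 1 had all below, against 14.0% and 5.80% of abundant genes. Dusp1, a phosphatase that limits MAP kinase signals, had 2099, 1069 and 101 CPM in GF sham, against 84.9, 79.1 and 75.1 CPM in ABX sham and 165, 1795 and 100.1 CPM in SPF sham. Replicates 1 and 2 of GF sham and replicate 2 of SPF sham were high, and replicate 3 of GF sham was close to ABX sham. The log2 fold change of GF sham over ABX sham was 3.77 ± 1.04, or 2.88 without replicate 1 of GF sham, and that of GF sham over SPF sham was 0.67 ± 0.94. Jund, a subunit of the transcription factor AP-1, had 502, 531 and 235 CPM in GF sham, against 35.9, 15.2 and 22.1 CPM in ABX sham and 28.4, 253 and 9.24 CPM in SPF sham, with the same SPF library high (4.11 ± 1.30 against ABX sham). Egr1, a growth-response transcription factor, had 786, 458 and 34.9 CPM in GF sham and 45.9, 34.0 and 31.9 CPM in ABX sham, with overlap.

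Heat shock genes had a lower list median. Hspd1, the mitochondrial chaperone HSP60, had 2.46, 35.7 and 69.8 CPM in GF sham, against 177, 135 and 130.3 CPM in ABX sham (-2.03 ± 0.72), and in its list 0 of 16 tested genes had all GF sham libraries above all ABX sham libraries and 3 had all below, against 14.0% and 5.80% of abundant genes. The median of that list was -0.21. With size factors of DESeq2 it was 0.11, and scaled by library totals it was -0.83. In the latter scaling 9 of 16 genes were all below, against 15.3% of abundant genes. Fkbp5, induced by glucocorticoids, had 1857, 451 and 163 CPM in GF sham and 13.7, 41.4 and 77.8 CPM in ABX sham (4.22 ± 1.42, and 2.79 without replicate 1 of GF sham), while the glucocorticoid and stress list had 1 of 16 genes without overlap upward, Fkbp5 itself.

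Several genes of iron storage, translation and energy metabolism had positive fitted values, none past the test in edgeR, while DESeq2 called Fth1 (adjusted p = 0.0371), Rpl13 (0.0122), Rpl32 (0.00658) and Cox5a (0.0434). Fth1, the heavy chain of ferritin, had 9669, 3073 and 5176 CPM in GF sham, against 2678, 2366 and 2409 CPM in ABX sham (1.27 ± 0.32). Ftl1, the ferritin light chain, whose reads may be shared with near-identical copies, had 9066, 3094 and 8742 CPM in GF sham and 3684, 4881 and 2901 CPM in ABX sham, with overlap. Its log2 fold change was 0.87 ± 0.37, or 0.08 with the correction for GC content, where Fth1 was at 1.28. Hmox1, which breaks down heme, had 35.5 ± 28.6 CPM in GF sham and 28.2 ± 5.02 CPM in ABX sham (SD, n = 3 each). Of 22 tested cytosolic ribosomal protein genes, 10 had all GF sham libraries above all ABX sham libraries and none had all below, against 14.0% and 5.80% of abundant genes, and the first count was 4 when scaled by library totals, where 9.30% of abundant genes had that order. Rpl13 had 1420.0, 649.7 and 711 CPM in GF sham and 333, 232 and 272 CPM in ABX sham (1.73 ± 0.42), and Rpl32 differed by 1.57 ± 0.46; ribosomal protein genes have many processed copies, so their values are uncertain. The median of the ribosomal list was 0.63, with 1.03, 0.47 and 0.66 by GF sham library, against 0.98, 0.01 and -0.001 for abundant genes. Scaled by library totals, the ribosomal list had -0.17, 0.36 and 0.46 by library. Aldoa, the glycolytic enzyme aldolase A, differed by 1.48 ± 0.57 (0.80 without replicate 1 of GF sham) without overlap, in a glycolysis and hypoxia list with 3 of 19 genes without overlap upward and none downward, near the 14.0% of abundant genes for the upward share. Scaled by library totals the glycolysis list had 3 upward and 3 downward, against 9.30% and 15.3% of abundant genes. Cox5a, a subunit of cytochrome c oxidase, had 169, 133 and 167 CPM in GF sham and 45.1, 57.8 and 36.1 CPM in ABX sham (1.75 ± 0.65), as the 1 gene of 21 in the nuclear-encoded oxidative phosphorylation list without overlap.

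**Figure D4:**
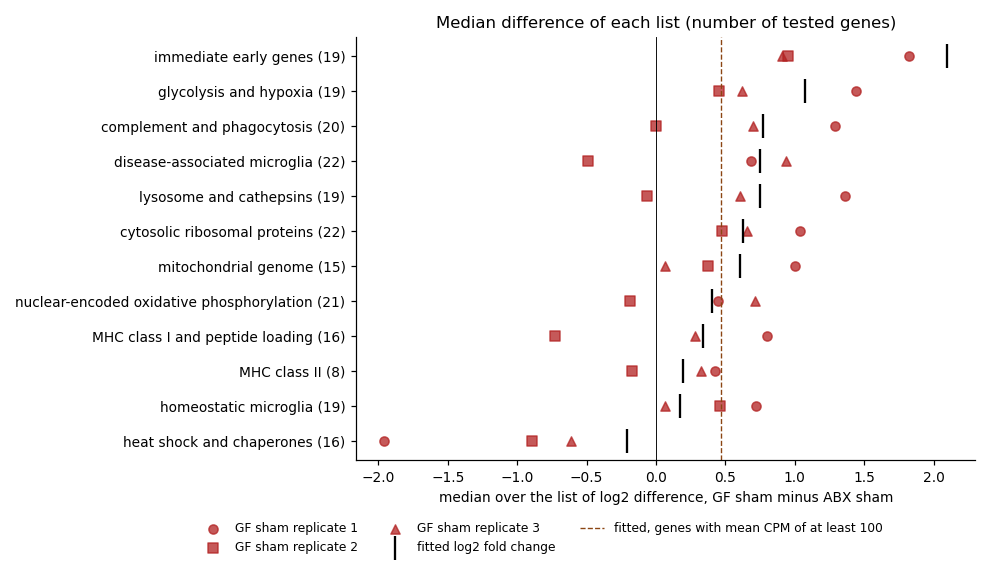
Median over each of 12 gene lists of the log2 difference between 1 GF sham library and the mean of the ABX sham libraries (symbols), and median fitted log2 fold change (black bars), with the fitted median of genes of at least 100 CPM dashed (0.47). Immediate early genes are highest at 2.10 and heat shock genes lowest at -0.21, and the 3 GF sham libraries differ within most lists. Genes of at least 100 CPM have medians of 0.98, 0.01 and -0.001 by GF sham library, which are not drawn.

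The remaining named genes included regulators of the cytoskeleton and of membrane lipids. Capzb, which caps actin filaments, had 2869, 849 and 607 CPM in GF sham and 453, 427 and 473 CPM in ABX sham (1.68 ± 0.44). Pfn1, profilin, which feeds actin growth, had 2097, 958 and 921 CPM in GF sham and 526, 473 and 445 CPM in ABX sham (1.46 ± 0.40). Both groups were separate for these genes, with replicate 1 of GF sham the highest. Stmn1, the tubulin-binding protein stathmin, differed by 1.63 ± 0.51, Pitpna, a phosphatidylinositol transfer protein, by 1.84 ± 0.52, Ly6e, an interferon-inducible membrane protein, by 1.50 ± 0.40, and Itgb5, the integrin beta 5 subunit, by 2.54 ± 0.93. Without replicate 1 of GF sham, Capzb was at 0.69, Pitpna at 0.73, Ly6e at 0.65 and Itgb5 at 1.78. With the correction for GC content Pfn1 was at 0.54 and Capzb at 1.55. Ly6e overlapped when scaled by library totals. In the other direction, Commd8 differed by -1.01 ± 0.42, Sec11c, a subunit of the signal peptidase, by -0.87 ± 0.41, Samsn1 by -1.04 ± 0.54, Fuca2, a fucosidase, by -1.52 ± 0.79, Rgs2, a regulator of G protein signalling, by -0.57 ± 0.31, Evi2a by -1.11 ± 0.64 and Cd302, a C-type lectin receptor, by -0.91 ± 0.53. The downward values had larger unadjusted p, from 0.00697 for P2ry13 to 0.0988 for Cd302, against 1.31e-04 for Grn to 0.00172 for Pitpna in the upward direction.

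Inflammatory and metabolite-sensing genes stood in both directions, several of them at low CPM. The cytokine and chemokine list had a median log2 fold change of 0.06, or -0.54 without replicate 1 of GF sham. That of the short-chain fatty acid list was 0.96, or 0.37 without replicate 1. Il1a, an alarm cytokine, had 4.92, 15.8 and 152 CPM in GF sham and 306, 295 and 144 CPM in ABX sham, with replicate 3 of GF sham inside the ABX sham range (-2.11 ± 0.93). Ccl2, a chemokine that draws monocytes, had 3.59, 1.39 and 7.13 CPM in GF sham, against 12.4, 17.3 and 10.2 CPM in ABX sham (-1.71 ± 0.87), without overlap. Tnf had 332, 0.174 and 4.53 CPM in GF sham and 7.91, 5.43 and 2.69 CPM in ABX sham, so that 1 library alone was high. Il1b stayed below 2 CPM in all 6 libraries. Ccl3, another chemokine of the list, stood the other way, with 215, 169.8 and 42.3 CPM in GF sham and 54.3, 65.3 and 46.4 CPM in ABX sham, with overlap (1.36 ± 0.66). Of the cytokine and chemokine list, 0 of 18 genes had all GF sham libraries above all ABX sham libraries and 2 had all below. The 2 were Ccl2 and Il6. Over all tested genes these shares were 4.03% and 7.66%, and over abundant genes 14.0% and 5.80%. The interferon response list had no gene of 24 without overlap in either direction, and its median of 0.89 changed with single libraries. It was 0.32 without replicate 1, 0.08 without replicate 2 and -0.47 without replicate 3 of GF sham, and by library it was -1.60, -0.50 and 0.34. Hcar2, a receptor for butyrate and ketone bodies, had 0.564, 0.349 and 9.62 CPM in GF sham and 5.94, 8.24 and 9.48 CPM in ABX sham, with overlap. Ffar2, a receptor for short-chain fatty acids, had 0 counts in all GF sham and ABX sham libraries, so any level up to the limit that 3 counts set in a library was not detectable. Slc16a1, a transporter of lactate and short-chain fatty acids, had 553, 18.2 and 18.4 CPM in GF sham and 19.9, 9.67 and 10.1 CPM in ABX sham, with 1 high library (3.90 ± 1.39, and 0.47 without it).

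The same contrast of GF with ABX was then set beside that after ICH, to ask whether it differed without and with hemorrhage. At ICH day 7, Apoe had 4315, 3619 and 5338 CPM in GF mice, against 21812, 4864 and 10888 CPM in ABX mice (-1.50 ± 0.47, log2), and at ICH day 3 it had 4274, 9126 and 8961 CPM in GF mice, against 7067, 4881 and 9889.7 CPM in ABX mice (0.03 ± 0.46). GF sham libraries overlapped in Apoe with GF libraries at both ICH days, whereas every ABX sham library lay below every ABX library after ICH. The GF over ABX log2 fold change in sham exceeded that at ICH day 7 by 4.96 ± 0.69 (adjusted p = 3.19e-04, edgeR interaction) and that at ICH day 3 by 3.42 ± 0.67, which did not pass (adjusted p = 0.608). The day 3 difference of Apoe passed in 2 of 21 alternatives, DESeq2 (adjusted p = 0.00523) and edgeR without GF sham replicate 3 (0.0321). The sham libraries enter both differences. Across all genes, the sham minus ICH day 7 interaction had 754 calls (4.29%), 702 positive (3.99%) and 52 negative (0.296%), with a median of 0.84 on the log2 scale, which was 0.16 when scaled by library totals.

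Csf1r had 227, 161 and 4.48 CPM in GF mice at ICH day 7, against 2157, 571 and 1077 CPM in ABX mice, and the sham difference exceeded that one by 5.92 ± 1.22 (adjusted p = 0.00833). Grn had 275, 267 and 465 CPM in GF mice at ICH day 7 and 1248, 982 and 1626 CPM in ABX mice, an excess in sham of 4.30 ± 0.73 (adjusted p = 0.00206). Cx3cr1 had 840.4, 474 and 217 CPM in GF mice at ICH day 7 and 3681, 1117 and 1287 CPM in ABX mice, an excess of 2.79 ± 0.63 (adjusted p = 0.0139). For both receptors and Grn the fitted GF over ABX fold change was positive in sham and negative at ICH day 7. All 12 genes of highest upward rank in sham passed this test, with Irf8 at 4.00 ± 0.78, Pfn1 at 3.67 ± 0.57 and Ly6e at 3.33 ± 0.56; they were chosen for their sham difference, which enters the interaction, so that count is not independent. At ICH day 3 no gene passed by edgeR, with 1144 genes (6.51%) at an unadjusted p below 0.05, 625 calls by DESeq2 and 4 by limma voom. All 3 GF ICH day 7 libraries had fewer than 12000 detected genes, as did ABX ICH day 7 replicates 1 and 2 (10184 and 10997). ABX ICH day 7 replicate 1, the highest of its group in Csf1r and Cx3cr1, also had a TMM factor of 0.476. Over abundant genes the day 7 interaction correlated with GC content across genes (Spearman rho 0.40, as a description, and -0.22 after the correction for GC content). With that correction there were 597 calls, and Apoe, Grn, Irf8, Csf1r, Cx3cr1, Ly6e and Pitpna still passed, among the 18 genes named here that passed without it. The part of depth of detection could not be separated by leaving those libraries out, since that leaves no GF library at ICH day 7.

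**Figure D5:**
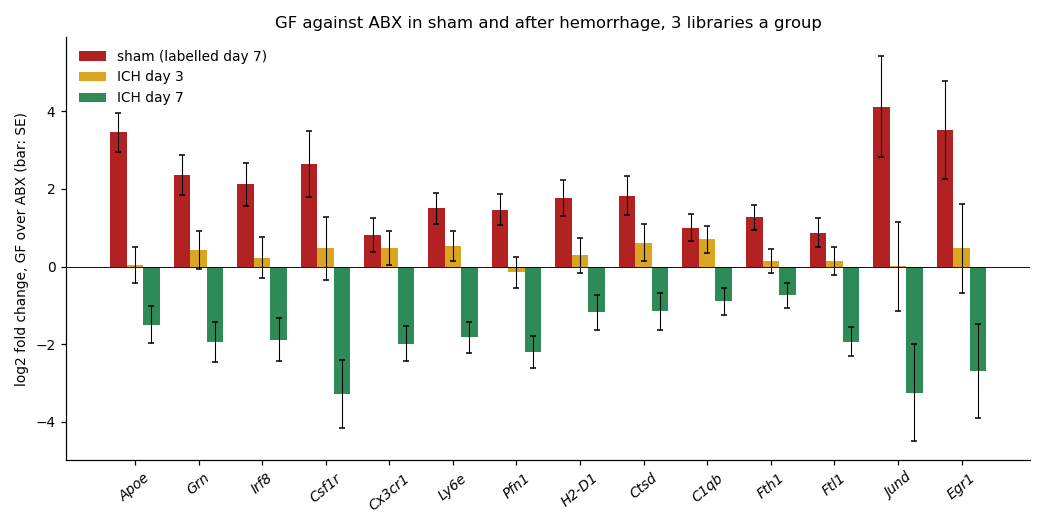
Fitted log2 fold change of GF over ABX for 14 genes in sham, at ICH day 3 and at ICH day 7, with SE bars and 3 libraries a group. In sham all 14 bars are above 0 and at ICH day 7 all are below 0, with Apoe at 3.45, 0.03 and -1.50. All 14 are among the 18 named genes past the sham minus ICH day 7 interaction, so this change of sign follows from the choice of genes. Other named genes were positive in sham and not below 0 at ICH day 7, Slc16a1 (3.90 and 5.12) and Rpl32 (1.57 and 0.34) among them.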

How the data were processed

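RNA of sorted microglia from 27 mouse libraries was measured by RNA sequencing. Per the submitters' processing notes, the tools were cutadapt 1.9, HISAT2 2.0.4, StringTie 1.3.4d and edgeR, with the mm10 build; the annotation release, the strand setting and how mates were counted are not given in the sources used here. The authors deposited whole-number counts per gene for 56691 identifiers, of which GENCODE M21 (GRCm38) gave a symbol to 52073; the other 4618 held 1.27% of counts. No column was left unmapped. The filterByExpr rule of edgeR 4.0.16 with the 9 groups kept 17573 genes holding 99.9% of counts. Library sizes were scaled by TMM, and 1 quasi-likelihood fit with robust estimates over the 9 group means (R 4.3.3) gave 5 comparisons, adjusted by the Benjamini-Hochberg method at 0.05. The common biological coefficient of variation was 1.54. The SE came from the quasi-likelihood F statistic. Library totals of 41664864 to 79090595 counts leave counting error small beside the spread between libraries.

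DESeq2 1.42.0 and limma 3.58.1 (voom with quality weights) were alternatives, with others given in the closing section, and the edgeR script was tested on simulated data. Named genes were up to 12 in each direction past the threshold whose log2 CPM averaged 4 or more and whose groups did not overlap; free places went to non-overlapping genes not past it with the smallest unadjusted p and log2 CPM averaging 6 or more. Up to 3 members of each of 26 functional lists with the smallest p, and a short list of genes of set interest, were added; 14 marker lists were described by sums. F13a1, Stab1, Lyve1, Cd163, Mrc1, Slc1a3, Gfap, Aqp4, Ttr, Itgax, Cd44, Chil3, Ccr2, Csf3r, S100a8, Timp2, Ccl3 and Il6 were named from their lists after their values were seen. One gene of the lists is not reported here and was left out of list counts, medians and sums. Members and lists were chosen with earlier results of these data known. A GC correction used a spline with 6 degrees of freedom on log2 values of each library. No 2 libraries held identical counts, and the lowest chi-square per degree of freedom within a group was 154, so all were kept as separate replicates. No label paired libraries by replicate number, so no pairing was used. Same-numbered GF sham and ABX sham libraries correlated at 0.01, -0.07 and -0.12 in their deviations from group means. So few pairs cannot show whether same-numbered libraries were handled together. Promoter sequences came from a RefSeq table for GRCm38.p6, in which all 3 genes shown were found.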

Additional observations from a re-analysis of the deposited data

Results flagged for a closer look

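The difference between GF and ABX microglia was not the same in sham as at ICH day 7 for 18 of the genes named here, by the interaction in the edgeR fit (adjusted p below 0.05). The log2 fold change of GF over ABX in sham exceeded that at ICH day 7 by 7.36 for Jund, 6.21 for Egr1, 5.92 for Csf1r, 5.09 for Dusp1, 4.96 for Apoe, 4.30 for Grn and 4.00 for Irf8. It was 3.67 for Pfn1, 3.33 for Ly6e, 3.09 for Pitpna, 2.98 for Ctsd, 2.94 for H2-D1, 2.80 for Ftl1 and 2.79 for Cx3cr1. It was 2.54 for Rpl13, 2.42 for Capzb, 2.01 for Fth1 and 1.89 for C1qb. The median of this interaction over all genes was 0.84, and 4.29% of genes passed. The named genes were chosen largely by their sham difference, which enters the interaction, so the count of 18 cannot be set against that share. With the correction for GC content 11 of the 18 lost the call, C1qb at 0.20 and Ftl1 at 1.02 among them, and in limma voom 17 lost it, all but Pfn1. Over the 19 or 20 alternatives run for each gene the call was kept in 7 (Egr1) to 19, with 9 for Dusp1 and Capzb, and with the replicate block Egr1 lost it (adjusted p = 0.0505). All 3 GF ICH day 7 libraries, ABX ICH day 7 replicates 1 and 2 and GF sham replicates 1 and 2 had fewer than 12000 detected genes. The part of this in the values was not tested.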

How the results depend on the processing

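Scaling by library totals alone was chosen after seeing the data. For GF sham against ABX sham the number of called genes was 0 with size factors of DESeq2, with the GC correction, and with the 9 sham or the 6 compared libraries alone, 3 in limma voom (Basp1 and Scand1 higher, Acss3 lower) and 812 in DESeq2 (576 higher, 236 lower, 73 of them with a mean of at least 100 CPM), and it ran over single libraries left out between 0 and 31, with 31 without GF sham replicate 3. It was 1 in the remaining alternatives, the replicate block among them, and Apoe was that gene except without libraries under 12000 detected genes. GF sham against SPF sham gave 0 calls with size factors of DESeq2, with the GC correction, without libraries under 12000 detected genes, with the 9 sham libraries alone and in limma voom, 876 in DESeq2, and 0 to 35 with 1 library left out. ABX sham against SPF sham gave 576 calls in DESeq2 and 108 in limma voom, against 0 in the other alternatives run. The sham minus ICH day 7 interaction gave 120 calls with a mean of at least 100 CPM, 412 with the replicate block, 395 scaled by library totals, 4485 in DESeq2, 17 in limma voom, and 158 to 1301 with 1 library left out, the lowest counts coming without any 1 ABX sham library (176, 222 and 158) and the highest without GF ICH day 7 replicate 2. The interaction could not be fitted without libraries under 12000 detected genes. At ICH day 3 it gave 625 calls in DESeq2, 4 in limma voom and 0 to 16 with 1 library left out. No label pairs libraries by replicate number, the few same-numbered correlations cannot settle it, and the block changed no call in the GF sham comparisons. The causes were not tested.

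Of 55 named genes, 47 kept their direction against ABX sham under all alternatives run. The log2 fold change turned to -0.10 for Egr1, -0.23 for Spp1, -0.23 for Tnf and 0.28 for Hcar2 without libraries under 12000 detected genes. Sall1 turned to -0.17 with the GC correction, -0.023 with the 9 sham libraries, -0.20 by library totals and ran from -0.52 to 0.63 with 1 library left out. B2m turned to -0.22 with a mean of at least 100 CPM, -0.43 by library totals, -0.10 in limma voom, and ran from -0.18 to 0.35 with 1 library left out. In limma voom, Il1b turned to 2.03, Tnf to -1.50 and Apoe in ABX sham against SPF sham to 0.38. With 1 library left out, the last ran between -0.38 and 0.45, Il1b between -1.43 and 7.42, Tnf between -1.18 and 4.98 and Hmox1 between -0.47 and 0.79. With 3 libraries a group and a coefficient of variation of 1.54, the test detects large differences only.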
